A study of Mus musculus with 4 samples.

Results

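The genes of autophagy and of nutrient sensing by mTORC1 were followed in RNA of primary mouse cells whose label is T-helper 17 (Th17), a class of CD4 T cell named for its production of interleukin 17. The set was a list of 47 genes, drawn up by function, out of 50600 genes in the deposited tables, and all 47 were found. The labels give 1 group of 4 libraries, numbered as biological replicates 1 to 4, from strain C57BL/6NJ, with no control group, genotype change or treatment named. They give each library its own biosample record, share 1 donor record among them, give age as unknown and sex as not collected, and link a protocol for differentiating CD4 T cells, while the deposited headers name alignments tagged as hour 0. The p-values below therefore rest only on how these libraries vary, which may in part be technical. They test either a gene's spread between libraries or whether 1 gene of a pair was consistently the higher.

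Autophagy encloses cytoplasm in a double membrane and delivers it to the lysosome. The ULK kinase complex starts the process, a class III phosphatidylinositol 3-kinase marks the membrane, and conjugation enzymes attach proteins of the ATG8 family, which bind cargo receptors. The mTORC1 kinase, switched on at the lysosome by Rag GTPases when amino acids are plentiful and by RHEB when growth signals hold back the TSC complex, promotes growth and blocks ULK. The AMPK kinase opposes mTORC1 when energy is low. In T cells, low mTORC1 activity goes with quiescence, and its activation accompanies growth and effector differentiation. RNA levels do not report the activity of these kinases.

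The libraries held 29041979, 35018552, 48808978 and 45490373 counted fragments in replicates 1 to 4. Markers of T cells were high, with 6 of 6 at or above 1 TPM (a length-corrected share of a library's transcripts) throughout and a summed level of 7044 to 7205 TPM. Of 9 markers of Th17 cells, 3 reached 1 TPM in every library, and the 9 together summed to 15.1 to 26.7 TPM. The highest were the interleukin 17 genes Il17f, at 9.83 ± 3.10 TPM, and Il17a, at 4.22 ± 1.53 TPM, and the lowest was the interleukin 23 receptor gene Il23r, with 8 counts in all. All 6 markers of naive T cells reached 1 TPM, with a summed level of 5759 to 6538 TPM, and since 6 of the 9 Th17 markers did not, the cells are called Th17-labelled here. Summed markers of B cells were at 2.51 to 3.73 TPM, of monocytes and macrophages at 1.55 to 2.73 TPM, of granulocytes at 0 to 0.56 TPM and of erythroid cells and platelets at 0 to 0.0916 TPM. Of the CD8 genes, Cd8b1 was at 42.9 ± 2.88 TPM and Cd8a at 0.15 ± 0.0772 TPM. In bulk RNA, fewer cells of a type and less RNA per cell cannot be told apart. Genes of the heat shock list summed to 3111, 3931, 3547 and 6531 TPM in replicates 1 to 4, which sets replicate 4 apart, and genes of the interferon list to 925, 1022, 624 and 843 TPM, lowest in replicate 3.

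Nearly the whole machinery was expressed, with a median at percentile 77.4 of nuclear protein-coding genes, expressed or not. In every library 46 of the 47 genes reached 1 TPM, against 45.6% of the 21751 nuclear protein-coding genes measured the same way, and 43 reached 5 TPM, against 39.9%. The exception was Wipi1. The median of the 47 genes was 34.9 TPM, whereas the median of all nuclear protein-coding genes, expressed or not, was 0.355 TPM. Of the 47, 17 had a mean of 20 to 50 TPM, against 12.9% of nuclear protein-coding genes, and 15 a mean of 50 to 100 TPM, against 9.01%. Only 3 were under 5 TPM, against 59.2%, while the 4 at 100 TPM or more, or 8.51%, were near the 8.04% of all these genes. Those 4 were Ddit4, Gabarap, Sqstm1 and Bnip3l. With the longest annotated transcript as gene length the first 3 kept their places and Becn1, at 106 TPM, passed Bnip3l, at 98.0 TPM. Values are mean TPM ± SD over the 4 libraries (n = 4) unless stated otherwise, and gene coordinates are on mm10.

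**Figure D1:**
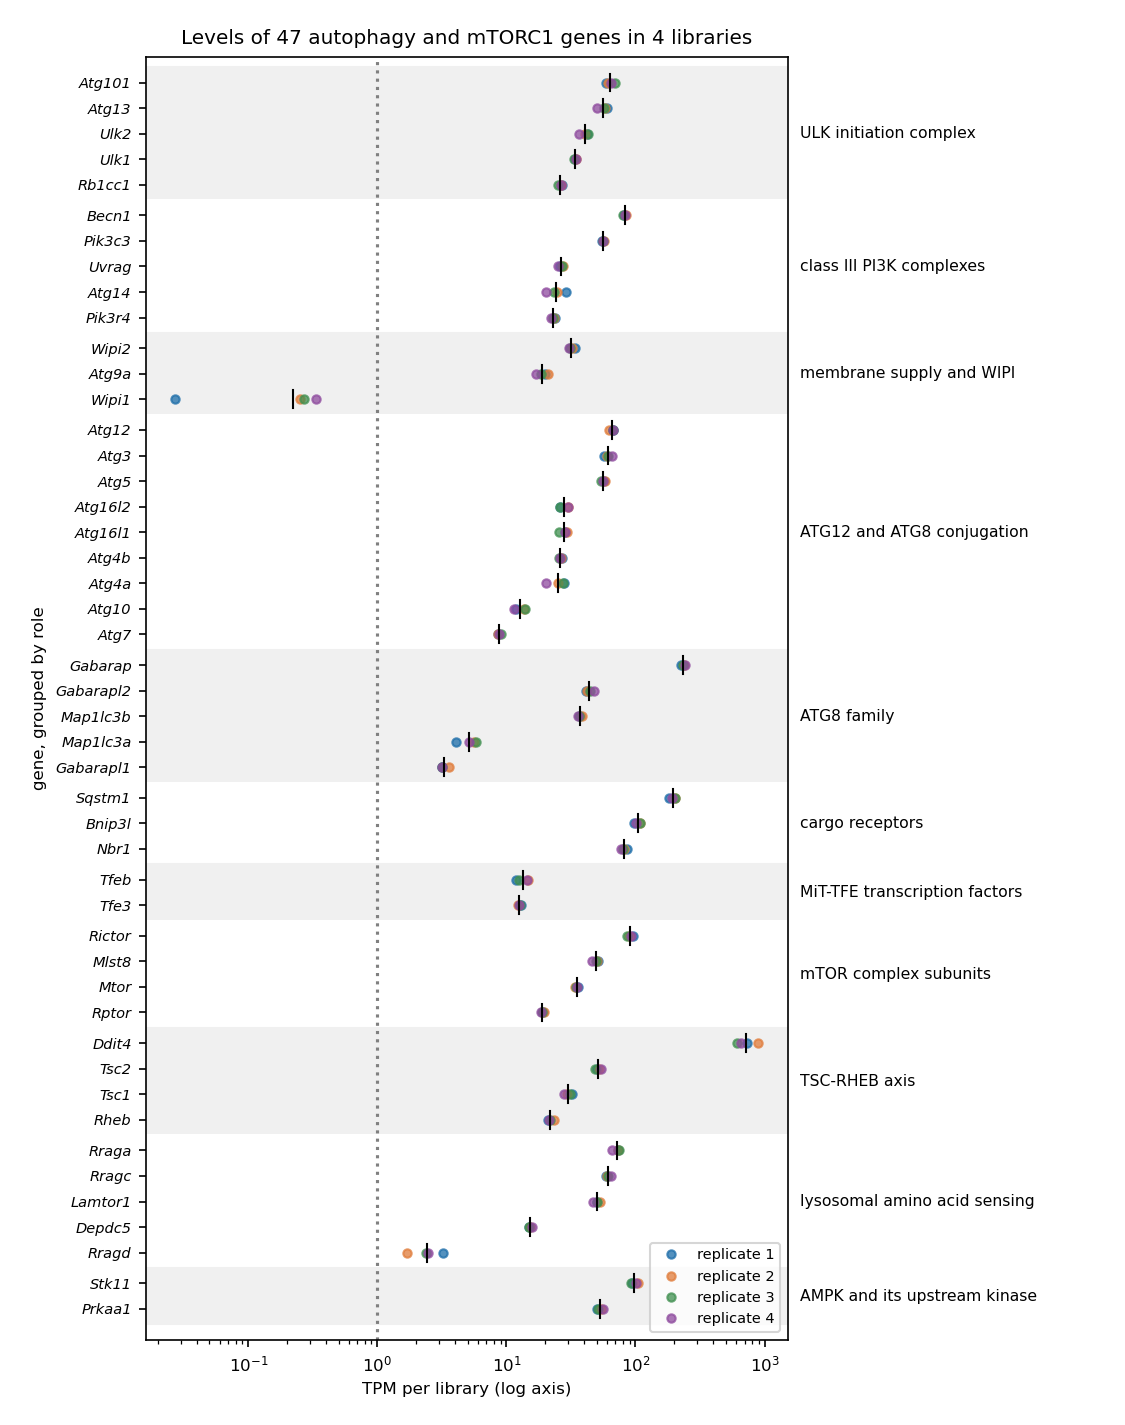
TPM of each of the 47 genes in each library, on a log axis, grouped by role; points are libraries, the short black line is the mean and the dotted line marks 1 TPM. Most genes lie between 20 and 100 TPM with the 4 libraries close together, Ddit4 lies highest at 609 to 895 TPM, and Wipi1 lies below 1 TPM in every library.

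Among the genes that start autophagy, both kinase genes of the ULK complex were expressed at like levels. Ulk1 was at 34, 34.5, 33.1 and 34.9 TPM in replicates 1 to 4, and its paralogue Ulk2 at 41.9, 40.9, 42.5 and 36.3 TPM. Ulk2 was the higher in each library, by a log2 difference between 0.0593 in replicate 4 and 0.359 in replicate 3. The order depends on the gene length used: with the longest annotated transcript in place of all exons, Ulk1 over Ulk2 went from -0.24 ± 0.13 to 0.015 ± 0.13 on the log2 scale. The adaptor gene Atg13 was at 56.2 ± 4.21 TPM, its stabilizing partner gene Atg101 at 63.7 ± 4.26 TPM, and the scaffold gene Rb1cc1, which encodes FIP200, at 26.2 ± 0.783 TPM. Rb1cc1 shares 8.48% of its 50-base stretches with transcripts of other genes, most often of a pseudogene. With the deposited lengths the 5 genes spanned 2.43-fold from Rb1cc1 to Atg101; with the longest transcript the lowest was Ulk2, at 33.5 TPM, and the highest Atg13, at 54.2 TPM. With the deposited lengths their summed level was 213 to 227 TPM in every library.

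The class III kinase complexes share a core and differ in 1 subunit. Becn1, the Beclin 1 gene of the core, was at 81.9, 84.5, 79.7 and 82.7 TPM and was the highest of the 5 genes in each library. The catalytic subunit gene Pik3c3 was at 56 ± 0.896 TPM and the regulatory subunit gene Pik3r4 at 23 ± 0.736 TPM. Atg14, whose product directs the complex to the forming autophagosome, was at 28.9, 24.6, 23.3 and 20.4 TPM, and Uvrag, whose product takes its place in the endosomal complex, at 26.1, 27.3, 26.8 and 25 TPM. Atg14 exceeded Uvrag in replicate 1 and lay below it in the other 3 libraries (exact sign-flip permutation p = 0.25). Their mean log2 ratio was -0.12 ± 0.19, and -1.04 ± 0.19 with the longest transcript as length, so the size of the difference depends on the length.

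Of the 14 gene pairs compared, the WIPI genes differed most. WIPI proteins read the phosphatidylinositol 3-phosphate that the kinase makes. Wipi2 (ENSMUSG00000029578, chromosome 5, 142627698 to 142670588, plus strand) was at 33.7, 32.3, 30.9 and 30.5 TPM. Wipi1 (ENSMUSG00000041895, chromosome 11, 109573331 to 109611967, minus strand) had 1, 11, 17 and 19 counts in replicates 1 to 4, or 0.0272, 0.251, 0.271 and 0.333 TPM. All Wipi1 values lay far below all Wipi2 values. Per exon length and summed over the libraries, Wipi2 was 132-fold higher, with an exact 95% counting interval of 99.4 to 179. In replicate 1, with a single Wipi1 count, the interval ran from 222 to 48920. Atg9a, for the membrane protein that seeds the autophagosome, was at 19 ± 1.82 TPM. It shares 42.3% of its 50-base stretches with transcripts of other annotated genes, so it may be undercounted.

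The conjugation genes were all expressed, and the E1 enzyme gene was the lowest of them with the deposited lengths. Atg7, the E1-like enzyme that serves both conjugation reactions, was at 8.63, 8.63, 9.1 and 8.78 TPM, lower than each of the other 8 genes in every library. With the longest transcript as length Atg10 was lower, at 10.2 ± 1.04 TPM against 12.5 ± 0.322 TPM for Atg7. The E2-like enzyme genes differed: Atg3, which acts on ATG8 proteins, was at 56.9, 60.2, 61.2 and 66 TPM, and Atg10, which acts on ATG12, at 11.8, 13.6, 13.9 and 11.3 TPM. Atg12 and Atg5, whose products are joined to each other, were at 66 ± 2.13 and 56.4 ± 1.81 TPM. Atg12 was at 27.5 ± 0.891 TPM when the longest transcript of a later annotation was used as length, so its place near Atg5 and Atg3 rests on the deposited length.

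Atg16l1 and Atg16l2, paralogues of which the first recruits the ATG12-ATG5 conjugate to the membrane, were at 28 ± 1.62 and 28.1 ± 2.21 TPM. Their log2 ratio was -0.0032 ± 0.085 with the deposited lengths and 0.96 ± 0.085 with the longest transcript, at which Atg16l1 was 1.95-fold higher. The protease genes Atg4a and Atg4b, which prepare ATG8 proteins and free them again, were at 28.2, 25.2, 27.7 and 20.2 TPM and 26.8, 26.6, 25.6 and 25.9 TPM in replicates 1 to 4. Atg4b was nearly constant and Atg4a was lowest in replicate 4. The sign of their difference varied between libraries (exact sign-flip permutation p = 0.75), but with the longest transcript as length Atg4b was the higher in 4 of 4, by 1.71-fold. A share of 63.6% of the 50-base stretches of the Atg4a transcript also occurs in transcripts of other genes, most often of Atg4a-ps. The headers show no option to count fragments that match several places, so Atg4a may be undercounted by an amount that is not known.

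Among the 5 genes of the ATG8 family, Gabarap led by a wide margin. Gabarap (ENSMUSG00000018567, chromosome 11, 69991143 to 69994951, plus strand) was at 226, 237, 233 and 241 TPM. Gabarapl2 followed at 41, 42.3, 44.3 and 47.5 TPM and Map1lc3b, which encodes the LC3B protein used as a marker of autophagosomes, at 37.4, 38.7, 36.6 and 36 TPM. Map1lc3a was at 4.07, 5.63, 5.78 and 5.11 TPM and Gabarapl1 at 3.16, 3.6, 3.14 and 3.15 TPM. This order was the same in each of the 4 libraries, with no overlap between neighbouring genes over the libraries. With the longest transcript as length Map1lc3b moved above Gabarapl2, at 53.8 ± 1.72 against 48.3 ± 3.11 TPM, and the places of the other 3 genes held.

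Gabarap exceeded Map1lc3b by 2.65 ± 0.066 on the log2 scale (6.28-fold), and by 2.24 ± 0.066 with the longest transcript as length. Map1lc3b exceeded Map1lc3a by 2.84 ± 0.23 (7.16-fold), and by 3.61 ± 0.23 (12.2-fold) with the longest transcript. Gabarapl2 exceeded Gabarapl1 by 3.70 ± 0.15 on the log2 scale. Each direction was shared by 4 of 4 libraries. Each exact permutation test, two-sided and made by flipping signs, gave the smallest unadjusted p that 4 libraries allow, which is above 0.05, so no pair could pass that threshold (adjusted p = 0.175 over 14 pairs). Gabarapl2 shared 17.0% and Map1lc3b 9.20% of their 50-base stretches with other genes, most often a processed pseudogene, so both may be somewhat undercounted.

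Cargo receptor genes were among the most abundant of the 47. Sqstm1 (ENSMUSG00000015837, chromosome 11, 50199366 to 50210827, minus strand), which encodes p62, a receptor for ubiquitinated cargo and itself an autophagy substrate, was at 183, 202, 203 and 192 TPM. Nbr1, a second receptor for ubiquitinated cargo, was at 86.1, 81.6, 80.4 and 76.9 TPM, and Bnip3l, the mitophagy receptor NIX, at 98.2, 108, 108 and 101 TPM. Sqstm1 stood above the other 2 genes in every library and exceeded Nbr1 by 1.26 ± 0.12 on the log2 scale (2.40-fold, 4 of 4 libraries, exact permutation adjusted p = 0.175). In replicate 4, where the heat shock list was highest, Sqstm1 was within the range of the other libraries, and a link between them was not tested. Bnip3l shared 23.4% of its 50-base stretches with transcripts of other genes, most often of its pseudogene Bnip3l-ps.

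**Figure D2:**
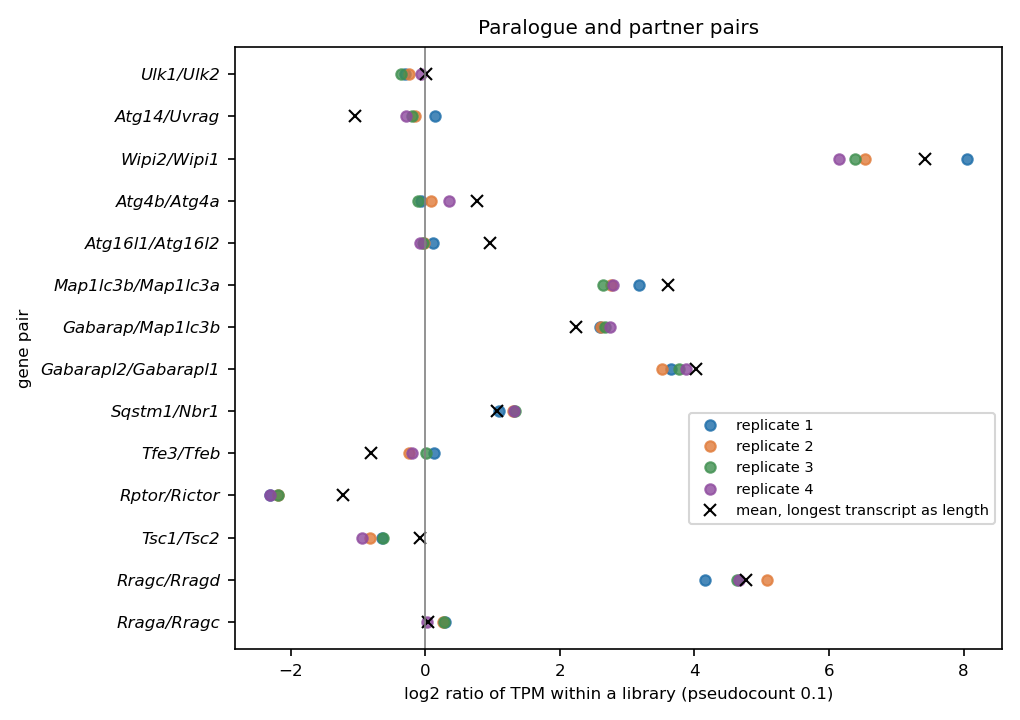
Log2 ratio of TPM within each library for the 14 gene pairs, with a pseudocount of 0.1; circles are libraries and crosses are means with the longest annotated transcript as gene length. Ratios such as Wipi2 over Wipi1 and Rragc over Rragd lie far from 0 in every library, while crosses far from the circles, as for Atg16l1 over Atg16l2, mark pairs whose ratio depends on the gene length.

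The transcription factors TFEB and TFE3 switch on lysosomal and autophagy genes when mTORC1 is inactive. Tfeb was at 11.8, 14.6, 12.6 and 14.4 TPM and Tfe3 at 12.9, 12.3, 12.7 and 12.6 TPM. The 2 genes overlapped, with Tfe3 the higher in 2 of 4 libraries (exact sign-flip permutation p = 0.5), although with the longest transcript as length Tfeb was 1.74-fold higher. Of the other members of that family, Mitf was at 1.87 ± 0.117 TPM and Tfec had 0 counts, which allows at most 0.0377 to 0.0644 TPM per library.

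Both factors bind sites that hold the hexamer CACGTG. RefSeq promoters (GRCm38.p6, 250 bases before to 50 after a gene's start) were matched for 40 of the 47 genes; Pik3c3, Bnip3l, Atg12, Atg16l1, Becn1, Rb1cc1 and Map1lc3a had no entry. CACGTG, which reads the same on both strands, occurred in promoters of 7 of these 40 genes, or 17.5%. The share was 8.09% of the 27025 genes in the whole table and 12.4% of the nuclear protein-coding genes at 1 TPM or more in every library, and 21.8% of the pathway genes outside the 47. These shares were not tested, and nothing particular to the 47 genes is read from them. The CLEAR element, a 10-letter form that holds the hexamer and also reads the same on both strands, was in 0 of the 45 promoters of the 40 genes, against 0.326% of all promoters and 0.788% of those of the expressed genes. The 8 occurrences of the hexamer are shown to let a reader see its flanks. They lie in promoters of genes from conjugation (Atg3, Atg5, Atg7), the class III kinase (Atg14) and nutrient sensing (Rragc, Rheb, Lamtor1). Each runs 5′ to 3′ on the gene's strand, with the hexamer in capitals.
Rragc: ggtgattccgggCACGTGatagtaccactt
Rheb: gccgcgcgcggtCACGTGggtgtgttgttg
Atg7: catattggtggtCACGTGtgcagtaagtga
Lamtor1: ctgccttcctatCACGTGccgcgggtccgc
Atg5: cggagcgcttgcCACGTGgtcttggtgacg
Atg14: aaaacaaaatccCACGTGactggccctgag
Atg3, farther from the start: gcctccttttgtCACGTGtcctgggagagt
Atg3, nearer to the start: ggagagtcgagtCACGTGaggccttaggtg

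A match is a description of letters and not evidence of binding. The hexamer began between 132 bases before the start, in Atg7, and 1 base before it, in Atg14, and Atg3 held 2 copies. The Rragc window is at chr4:123917309-123917338 on the plus strand. The Rheb window is at chr5:24842440-24842469 on the minus strand. The Atg7 window is at chr6:114670952-114670981 on the plus strand. The Lamtor1 window is at chr7:101905757-101905786 on the plus strand. The Atg5 window is at chr10:44268313-44268342 on the plus strand. The Atg14 window is at chr14:47568418-47568447 on the minus strand. The farther Atg3 window is at chr16:45158723-45158752 on the plus strand. The nearer Atg3 window is at chr16:45158746-45158775 on the plus strand. The RefSeq starts of Atg7, Rheb and Atg3 lie inside the genes as deposited, and the windows of Atg7 and Rheb do too. The 7 genes with the hexamer ranged from Atg7 at 8.78 TPM to Rragc at 61.6 TPM, inside the range of the 47.

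Among the mTOR complex genes, the subunit that defines mTORC2 was the most abundant. Mtor, the kinase shared by both complexes, was at 36, 34.1, 34.7 and 35 TPM, and Mlst8, a shared subunit, at 49.1 ± 2.06 TPM. Rictor (ENSMUSG00000050310, chromosome 15, 6708381 to 6800398, plus strand), which defines mTORC2, was at 95.7, 89.5, 86.4 and 92.7 TPM, and Rptor, which encodes Raptor and defines mTORC1, at 19.2, 19.4, 18.8 and 18.5 TPM. Rictor lay above Rptor in every library, 4.77-fold with the deposited lengths and 2.34-fold with the longest transcript (exact permutation adjusted p = 0.175). The other mTORC2 subunit gene Mapkap1 was at 42.5 ± 0.974 TPM, whereas Prr5 had 3 counts and Prr5l 18 counts over all libraries. Deptor, an inhibitor of both complexes, was at 0.596 ± 0.0843 TPM.

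With the deposited lengths, both listed genes of the TSC complex, the brake on the GTPase RHEB, were expressed above Rheb itself. Tsc2, for the GTPase-activating subunit tuberin, was at 50.7, 52.2, 48.2 and 53.6 TPM, Tsc1, for its partner hamartin, at 32.3, 29.5, 31.1 and 27.9 TPM, and Rheb at 21, 23.3, 21.8 and 21.3 TPM. Tsc1 over Tsc2 was -0.76 ± 0.15 on the log2 scale and -0.084 ± 0.15 with the longest transcript, so their difference depends on the length. The gap to Rheb does too. With the longest transcript Rheb was at 33.2 ± 1.56 TPM, against 37.0 ± 2.38 TPM for Tsc1 and 39.2 ± 1.72 TPM for Tsc2. Tbc1d7, the third TSC subunit, was lower, at 7.93 ± 2.11 TPM.

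Ddit4 was the most abundant of the 47 genes. It encodes REDD1, a stress-induced protein that restrains mTORC1 through the TSC complex. Ddit4 (ENSMUSG00000020108, chromosome 10, 59949669 to 59951834, minus strand) measured 735, 895, 609 and 651 TPM in replicates 1 to 4, and its mean was at percentile 99.4 of nuclear protein-coding genes. It was highest in replicate 2 and lowest in replicate 3. Its level was above every other gene of the 47 in each library.

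At the lysosome, 2 of the 3 Rag genes on the list were well expressed. Rraga was at 72.7, 72.9, 74.1 and 66.1 TPM and its partner Rragc at 59.5, 60.6, 61.1 and 65 TPM, with Rraga the higher in 4 of 4 libraries but by only 0.023 on the log2 scale in replicate 4. With the longest transcript as length Rraga was the higher in 3 of 4 libraries, with a mean log2 ratio of 0.034 ± 0.13. Rragd (ENSMUSG00000028278, chromosome 4, 32983037 to 33022180, plus strand), the alternative to Rragc, was at 3.23, 1.69, 2.38 and 2.47 TPM. Rragc exceeded Rragd by 4.63 ± 0.38 on the log2 scale (24.8-fold, 4 of 4 libraries, exact permutation adjusted p = 0.175). Rragb, the alternative to Rraga, was at 11.4 ± 1.03 TPM. Lamtor1, which anchors the Ragulator scaffold to the lysosome, was at 46.5 to 53.1 TPM. Depdc5, a subunit of GATOR1, which turns the Rag switch off, was at 14.8, 15.3, 15.1 and 15.7 TPM.

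Both listed genes of the energy-sensing branch were expressed. Prkaa1, the catalytic alpha 1 subunit of AMPK, was at 50.2, 53.6, 50.8 and 56.3 TPM, and Stk11, which encodes its activating kinase LKB1, at 93.9, 105, 92.7 and 100.4 TPM. Stk11 was the higher in every library. The other catalytic subunit gene, Prkaa2, had 3 counts over all libraries. Of the gamma subunit genes, Prkag1 was at 286 ± 12.5 TPM and Prkag3 had 0 counts, which allows at most 0.0573 to 0.0978 TPM per library.

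The second question was how far the 47 genes differed between the 4 libraries. By edgeR's quasi-likelihood dispersion test over 12464 genes, 46 of the 47 could be tested and 0 were called more variable than the trend for their abundance, against 0.193% of all genes tested (24 genes). Wipi1 was below the count filter. Without adjustment, 1 of the 46 had a p below 0.05, against 5.34% of all genes, and 0 were dispersion outliers by DESeq2, against 0.866%. The median SD of log2 CPM (counts scaled to library size) over the libraries was 0.067 for the 46 genes, 0.11 for all 12464 and 0.080 for the 3038 genes whose abundance lay within the middle 2 quartiles of the 46. The highest library exceeded the lowest by less than 1.2-fold in 38 of the 47 genes. The share over all genes was not computed, so nothing particular to the 47 is read from that count. Rptor and Atg4b were the steadiest, with an SD of 0.012 and 0.0088 on the log2 CPM scale.

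**Figure D3:**
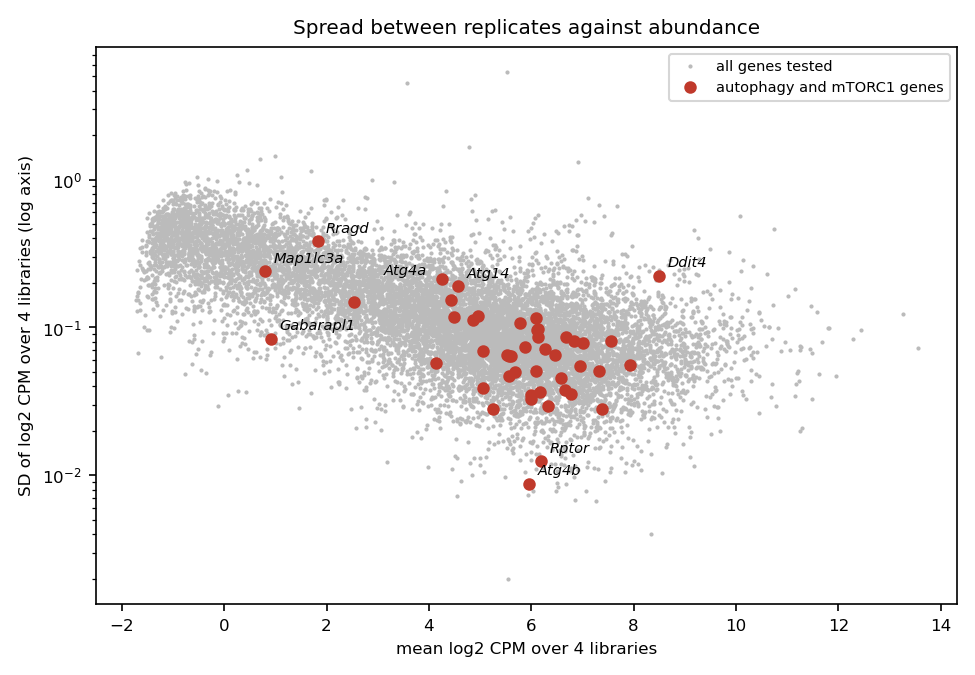
SD of log2 CPM over the 4 libraries (log axis) against mean log2 CPM for the 12464 genes tested (grey) and the 46 autophagy and mTORC1 genes among them (red). The 46 genes lie within the cloud of all genes, with SDs from 0.0088 for Atg4b to 0.38 for Rragd.

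Ddit4 had the smallest p of the 46 (edgeR unadjusted p = 0.00846, adjusted p = 0.539), with the values given above. Its replicate 2 value of 895 TPM was 1.47-fold its replicate 3 value. Without replicate 4 it was called (edgeR adjusted p = 0.0491, when 0.69% of all genes were called), and without replicate 2 its unadjusted p was 0.235. Without a count filter it was also called (edgeR adjusted p = 0.00534, when 1.63% of all genes were). The interferon list was likewise highest in replicate 2 and lowest in replicate 3, and its part in the Ddit4 values was not tested.

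Rragd had the largest ratio of highest to lowest library among the tested genes, 1.90-fold, from 139, 87, 175 and 165 counts, and was not called (edgeR adjusted p = 0.984). Atg4a and Atg14 followed Ddit4 in p and were not called either (edgeR adjusted p = 0.961 and 0.963). Both were highest in replicate 1 and lowest in replicate 4, the library in which the heat shock list was highest, and the part of that in either gene was not tested. By library, 19 of the 46 genes had their lowest log2 CPM in replicate 1 and 16 in replicate 4, or 41.3% and 34.8%, against 25.5% and 30.6% of all genes tested.

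**Figure D4:**
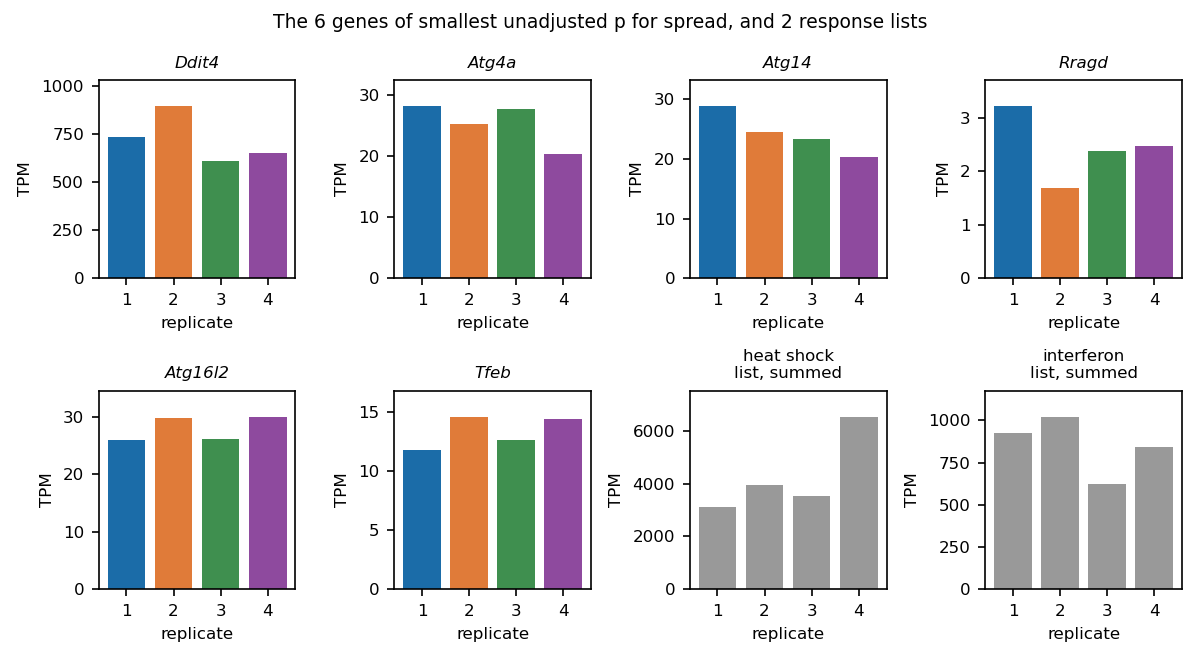
TPM in each replicate for the 6 genes of smallest unadjusted p for spread between libraries, coloured, and the summed TPM of the heat shock and interferon lists, grey; bars are single libraries and start at 0. Ddit4 is highest in replicate 2, Atg4a and Atg14 are lowest in replicate 4, and the heat shock list is highest in replicate 4.

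Other genes of the same pathways were taken from lists of 146 symbols, of which 145 were found. In every library 131 of these, or 90.3%, reached 1 TPM, against 45.6% of nuclear protein-coding genes. The 145 genes had a median of 44.3 TPM. By edgeR, 0 of the 134 that passed the count filter were called excess variable, against 0.193% of all genes tested. An unadjusted edgeR p below 0.05 was found for 2 of the 134, against 5.34% of all genes tested. The lists of highest median were lysosomal. The 25 lysosomal hydrolase and membrane protein genes had a median of 69.8 TPM, led by Psap at 720 ± 17.6 and Npc2 at 520 ± 6.17 TPM. Cd63 had 0 counts, a limit of 0.0573 to 0.0978 TPM per library for fragments that could be counted. Shared sequence was not checked for Cd63, and shared fragments were left out, so a higher level is not excluded. The 16 genes of the lysosomal proton pump all reached 1 TPM, with a median of 82.7 TPM, led by Atp6ap1 at 161 ± 4.51 and Atp6v1f at 142 ± 5.42 TPM, with Atp6v0a1 lowest at 1.73 ± 0.215 TPM. Each of the 14 fusion genes passed 1 TPM, led by the GTPase gene Rab7 at 203 ± 7.89 and Vps16 at 166 ± 8.16 TPM, with Vps18 lowest at 14.8 ± 1.87 TPM.

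Of 15 further initiation and membrane genes, 14 were at 1 TPM or more throughout, the highest being Tecpr1 at 217 ± 5.63 and Ambra1, a Beclin 1 partner, at 72.3 to 82.6 TPM, with Rubcnl lowest at 0.144 ± 0.0347 TPM. Of 19 other selective autophagy genes, 16 were, led by Fkbp8 at 217 ± 5.15 and the endoplasmic reticulum receptor gene Retreg1 at 183 ± 7.49 TPM. Wdfy3 had 0 counts throughout, a limit of 0.0138 to 0.0235 TPM per library for fragments that could be counted.

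Upstream of mTORC1, the sestrin genes Sesn1 and Sesn3 led the 6 amino acid sensor genes at 126 ± 7.45 and 98.7 ± 6.54 TPM, with Sesn2 lowest at 5.42 to 7.57 TPM. All 10 other GATOR and KICSTOR genes reached 1 TPM, led by Sec13 at 82.0 ± 3.00 TPM, with Wdr59 lowest at 14.1 ± 0.609 TPM. Of 9 other Rag, Ragulator and FLCN genes 8 did, led by Lamtor2 at 100.1 ± 3.78 and Lamtor5 at 94.0 ± 8.79 TPM, with Fnip2 lowest at 0.304 ± 0.0495 TPM. Of 9 genes for mTORC1 substrates 7 did. The translation repressor gene Eif4ebp2 led at 316 ± 20.1 TPM and the RNA polymerase III repressor gene Maf1 followed at 209 ± 5.82 TPM, far above Eif4ebp1 at 5.47 ± 0.764 TPM, while Grb10 had 0 counts (at most 0.0232 to 0.0396 TPM). Of 9 other mTOR complex and TSC genes 6 did, led by Tti1 at 44.0 ± 1.26 TPM, and of 11 other AMPK and LKB1 genes 9 did, led by Prkag1 and Cab39 at 137 ± 4.84 TPM.

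**Figure D5:**
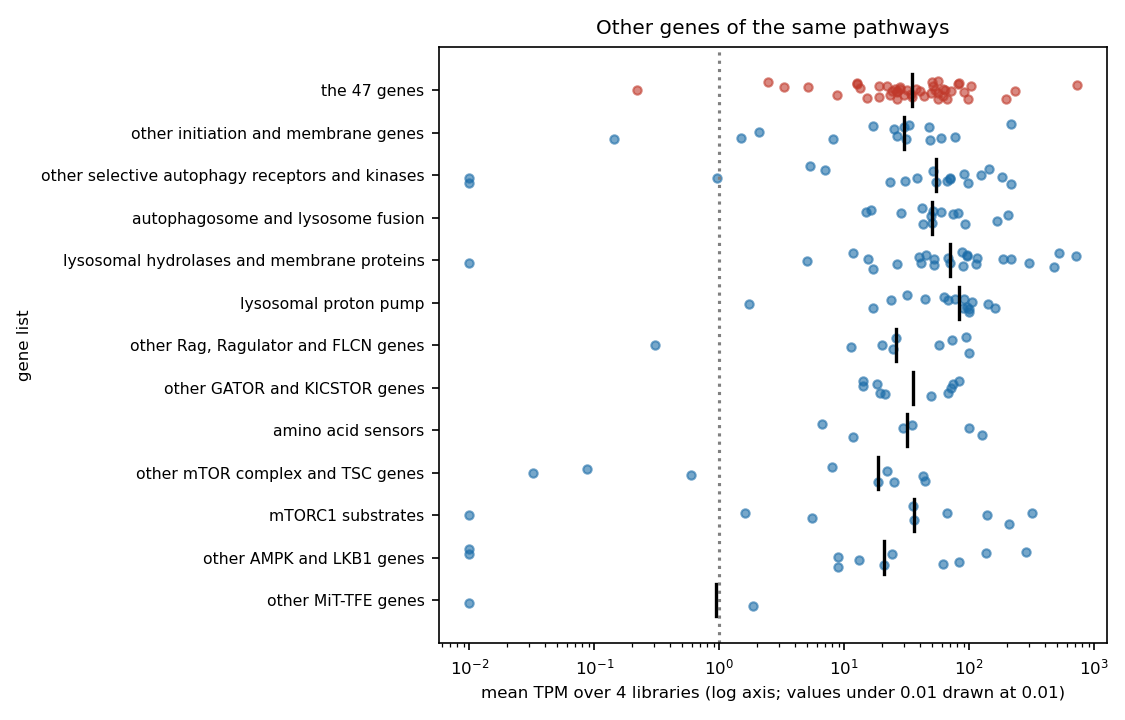
Mean TPM over the 4 libraries (log axis) of the 47 genes (red) and of the genes of 12 further lists (blue); each point is a gene, the black line is the list's median, the dotted line marks 1 TPM and means under 0.01 TPM are drawn at 0.01. The lysosomal lists have the highest medians, 69.8 and 82.7 TPM, and the 47 genes have a median of 34.9 TPM.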

How the data were processed

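RNA-seq libraries of mouse primary cells labelled T-helper 17 were compared, 4 libraries in 1 group. Per the file headers, the authors ran featureCounts 1.4.6-p4 against GENCODE M13 exons (build mm10) on paired fragments with both ends mapped, under the reverse-strand setting, and deposited unnormalized counts. No multi-mapping or multi-overlap option appears there, so shared fragments were left out. The other deposited measure is each gene's exon length in bases. The labels call the assay total RNA-seq and link a library protocol titled as poly(A)+. No aligner version is stated in the labels or headers.

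For 50376 of 50600 genes a symbol was found in GENCODE M21, matching unversioned IDs. TPM was computed here from counts and deposited lengths. The members and lists were chosen with earlier results of these data known. Spread was tested with edgeR 4.0.16 in R 4.3.3 (intercept only, TMM, filterByExpr, robust quasi-likelihood fit) by a one-sided F test of each quasi-dispersion against the prior trend, Benjamini-Hochberg adjusted over 12464 genes, with a threshold of 0.05. DESeq2 1.42.0 gave an alternative. The 14 pairs were compared by exact sign-flip permutation tests of log2 TPM ratios with a pseudocount of 0.1. A count of 0 was taken to allow 3 counts. Such limits and counting intervals cover counting error only. They do not cover fragments left out as shared, and shared sequence was checked for the 47 genes only. Of the 47 genes, 43 had 100 or more counts in every library. Named genes were all 47, and of each further list the 2 highest, the lowest and those at 0 counts; Tbc1d7, Rragb, Deptor, Prr5l, Prkaa2 and Eif4ebp1 were named after their values were seen, and some genes that the rule names are not reported here. Shared sequence was the share of 50-base stretches of the longest GENCODE M21 transcript found in transcripts of any other gene. A gene named beside it is the other gene that held the most of them. Python 3.11.15 served for the rest. The planned comparison of ATG8 protein sequences was not made, since no protein sequences were among the references used here. Alternatives covered length, denominator, pseudocount, filters, normalization, fit and single libraries.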

Additional observations from a re-analysis of the deposited data

Results flagged for a closer look

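Of 73 values over 4 libraries checked (the TPM of the 47 genes, the summed TPM of the 12 groupings and the 14 log2 ratios), 4 had 1 library whose gap to its neighbour was a larger share of the whole range than Dixon's 95% critical value. Chance alone would give about 1 in 20. Atg12 was lowest in replicate 2, at 62.8 TPM. Gabarapl1 was highest in replicate 2, at 3.60 TPM from 72 counts. Sqstm1 over Nbr1 was lowest in replicate 1, at 1.09 on the log2 scale. Rraga over Rragc was lowest in replicate 4, at 0.023 on the log2 scale.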

How the results depend on the processing

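With each replicate left out in turn, 46 genes stayed at 1 TPM in every library, a count that leaving a library out cannot lower. The mean TPM of the 47 genes moved by less than 1 SD in 188 of 188 cases. Dropping 1 of 4 values cannot move a mean by 1 SD, so nothing is concluded from that. The median of the 47 stayed between 34.6 and 35.2 TPM. That median was 39.8 TPM with a denominator of nuclear protein-coding genes, which scaled the 47 genes by 1.14, and 39.2 TPM with the longest transcript as length, which moved 9 genes by over 1.5-fold. The count of excess variable genes over all genes was 24. It was 349 without a filter beyond 1 count, 10 when a mean CPM of at least 5 was required, 5 under the non-robust fit and 108 as DESeq2 dispersion outliers, and 7 to 86 when 1 library was left out (7 without replicate 3, 13 without replicate 2, 86 without replicate 4). The count among the 47 was 0 over all 4 libraries with a count filter, and 0 to 1 when 1 library was left out. It was 1, Ddit4, without replicate 4 and without a filter beyond 1 count. The cause was not tested. Signs of log2 ratios changed as follows. With the longest transcript, Ulk1 over Ulk2 was 0.015 and Atg16l1 over Atg16l2 was 0.96. With CPM and no length, Atg16l1 over Atg16l2 was 0.18, Tfe3 over Tfeb 0.62, Tsc1 over Tsc2 0.21 and Rraga over Rragc -0.83. Without 1 library, Atg4b over Atg4a was -0.034 to 0.12 and Atg16l1 over Atg16l2 was -0.044 to 0.022. No paired analysis was possible because there is 1 group. Depth limits Wipi1 most, with 48 counts in all.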

Other observations

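Of the pathway genes outside the 47, Pink1 and Nprl3 had the smallest unadjusted p for spread between libraries, and both were chosen after their values were seen. For the mitophagy kinase gene Pink1, replicates 1 to 4 gave 154, 142, 104 and 98.2 TPM (edgeR unadjusted p = 0.0021, adjusted p = 0.282). Nprl3, a GATOR1 subunit gene, was at 22.1, 16.0, 19.2 and 15.2 TPM (edgeR unadjusted p = 0.0162, adjusted p = 0.68). Neither was called.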
